A study of Mus musculus with 12 samples.

Results

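The colony-stimulating factors M-CSF and IL-34, and the receptor chains for M-CSF, IL-34, GM-CSF and G-CSF, are encoded by 7 genes that were followed here in cultured mouse microglia: the ligands *Csf1* and *Il34*, and the receptor genes *Csf1r*, *Csf2ra*, *Csf2rb*, *Csf2rb2* and *Csf3r*. They were found by matching the mouse gene identifiers of the expression table to these symbols. Each symbol had 1 identifier, so the set is 7 of the 48623 genes listed. Primary microglia from newborn mice, isolated from mixed glia of the cortex and hippocampus, came from wild-type (WT) mice or from mice with 2 copies of the germline *Trem2* R47H knock-in (KI), both on a C57BL/6J background. There were 3 WT cultures (T13, T33 and T43) and 3 KI cultures (T15, T22 and T32). Each culture gave 1 untreated library and 1 library from cells given IL-4, an anti-inflammatory cytokine, at 20 ng/ml for 48 h, so that there were 12 libraries in 4 groups of 3. The study calls the WT mice littermates of the KI mice, and pups of the KI line were cultured separately and genotyped afterwards. After purification, all microglia were plated in medium conditioned by the mixed glia.

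CSF1R is the receptor tyrosine kinase on which microglia depend for survival and renewal, and it has alternative ligands, M-CSF (*Csf1*) and IL-34. The GM-CSF receptor is built from a specific alpha chain (*Csf2ra*), which binds the cytokine, and the common beta chain (*Csf2rb*), which signals through JAK2 and STAT5 and is shared with the IL-3 and IL-5 receptors. The mouse has a further beta chain, *Csf2rb2*, that works with the IL-3 receptor. *Csf3r* encodes the G-CSF receptor, best known from neutrophils and their precursors.

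All values are TPM, transcript abundances that are corrected for length and therefore allow levels to be compared between genes. They sum to 1000000 in each library and keep no record of the reads counted, so the depth behind a value is unknown. Between 20750 and 23945 genes were above 0 per library. *Trem2* ranged from 1190 to 1886 TPM over the 6 WT libraries and from 325 to 770 TPM over the 6 KI libraries, so it was lower in every KI library. KI culture T15 stood apart. Its untreated library had the lowest summed level of 17 microglia markers, 13954 TPM, against 22373 and 27859 TPM in the other untreated KI libraries, and the highest summed level of 12 astrocyte markers, 5967 TPM, against 302 and 867 TPM. The IL-4-treated library of the same culture likewise had the most astrocyte markers of its group, 4575 against 1031 and 820 TPM, and the fewest microglia markers, 23867 against 32195 and 31455 TPM. The microglia label was borne out in every library, where the 17 markers summed to at least 13954 TPM. Because these are bulk samples, fewer cells of a type and less RNA per cell cannot be told apart.

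The sequence in front of a gene is where transcription factors such as PU.1 (SPI1), which drives macrophage genes, and STAT6, which IL-4 activates, can bind. Promoters of 300 bases were read from RefSeq on GRCm38.p6 for the 4 of the 7 genes that matched. They reach from 250 before to 50 after the start of transcription. These are shown because 3 of them belong to receptors of the same family and 1 to the ligand gene *Csf1*. That gene passed the genotype test when culture was not part of the fit. *Csf1r*, *Il34* and *Csf2rb* had no match. Each runs 5′ to 3′ on the gene's own strand, with matches to the searched motifs in capitals. *Csf1* lies at chr3:107760420-107760719 (minus strand), *Csf2ra* at chr19:61228369-61228668 (minus), *Csf2rb2* at chr15:78305672-78305971 (minus) and *Csf3r* at chr4:126024409-126024708 (plus).
Csf1: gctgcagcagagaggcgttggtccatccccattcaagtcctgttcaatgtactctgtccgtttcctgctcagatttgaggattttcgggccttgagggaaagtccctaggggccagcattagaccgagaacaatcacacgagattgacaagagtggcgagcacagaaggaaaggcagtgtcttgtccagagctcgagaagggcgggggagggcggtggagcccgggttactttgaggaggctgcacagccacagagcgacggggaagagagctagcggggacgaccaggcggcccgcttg
Csf2ra: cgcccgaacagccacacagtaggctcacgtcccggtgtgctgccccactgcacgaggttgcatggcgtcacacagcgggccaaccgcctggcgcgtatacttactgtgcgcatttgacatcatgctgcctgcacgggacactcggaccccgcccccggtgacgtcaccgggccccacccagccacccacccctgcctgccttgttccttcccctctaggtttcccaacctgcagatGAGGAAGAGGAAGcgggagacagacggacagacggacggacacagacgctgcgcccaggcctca
Csf2rb2: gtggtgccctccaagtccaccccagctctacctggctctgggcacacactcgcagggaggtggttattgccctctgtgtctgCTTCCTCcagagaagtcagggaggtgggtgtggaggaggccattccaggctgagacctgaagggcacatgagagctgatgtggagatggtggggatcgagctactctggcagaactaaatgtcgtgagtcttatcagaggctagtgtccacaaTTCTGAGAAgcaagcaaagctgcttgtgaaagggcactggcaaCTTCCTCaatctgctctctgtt
Csf3r: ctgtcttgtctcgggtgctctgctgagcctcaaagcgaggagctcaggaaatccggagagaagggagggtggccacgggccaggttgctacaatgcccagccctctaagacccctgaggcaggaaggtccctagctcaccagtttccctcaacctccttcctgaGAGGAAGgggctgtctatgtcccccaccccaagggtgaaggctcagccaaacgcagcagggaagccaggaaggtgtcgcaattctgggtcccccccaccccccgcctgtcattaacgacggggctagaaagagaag

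Searched on both strands were a PU.1-type motif (GAGGAAG), a STAT6-type motif (TTC and GAA with 4 bases between them), a STAT-type motif (TTCNNNGAA), an AP-1-type motif (TGANTCA) and a C/EBP-type motif (TTGCNNAA). The PU.1-type motif was present in the promoters of the 3 receptor genes shown. It stood at positions -14 and -8 of *Csf2ra* in copies that overlap by 1 base, at -168 and 29 of *Csf2rb2* on the opposite strand, and at -86 of *Csf3r*. Among all 32851 promoters of this length, 13.6% held it. The STAT-type motif, held by 8.3% of all promoters, was found in *Csf2rb2* at -15 as TTCTGAGAA. None of the 5 motifs was found in the *Csf1* window, and none of the 4 windows held the STAT6-type (6.95% of all promoters), AP-1-type (7.81%) or C/EBP-type (10.8%) letters. A match is a description of the letters and not a measured binding site.

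The receptor genes differed widely in level. *Csf1r* was the most abundant of the 7 genes in every library, between 307 and 951 TPM, and its mean had rank 177 of 48623 genes. *Csf2ra* had the next highest mean, between 38.8 and 296 TPM. *Csf3r* (25.9 to 94.4 TPM), *Csf1* (14.6 to 119 TPM), *Csf2rb* (14.6 to 80.7 TPM) and *Csf2rb2* (10.2 to 37.99 TPM) had lower means, although *Csf1* exceeded *Csf2ra* in the untreated T15 library (85.9 against 38.8 TPM), and *Il34* was at most 9.73 TPM and listed at 0 in 4 libraries. The alpha chain of the GM-CSF receptor was above each beta-chain gene in every library, and the ratio of *Csf2ra* to the summed beta chains was 3.05 ± 0.387 (SD, n = 3) in untreated WT, 2.79 ± 0.426 in IL-4-treated WT, 2.85 ± 1.11 in untreated KI and 2.49 ± 0.307 in IL-4-treated KI cultures. The plot of TPM by library shows these levels with the 2 libraries of each culture joined.

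**Figure D1:**
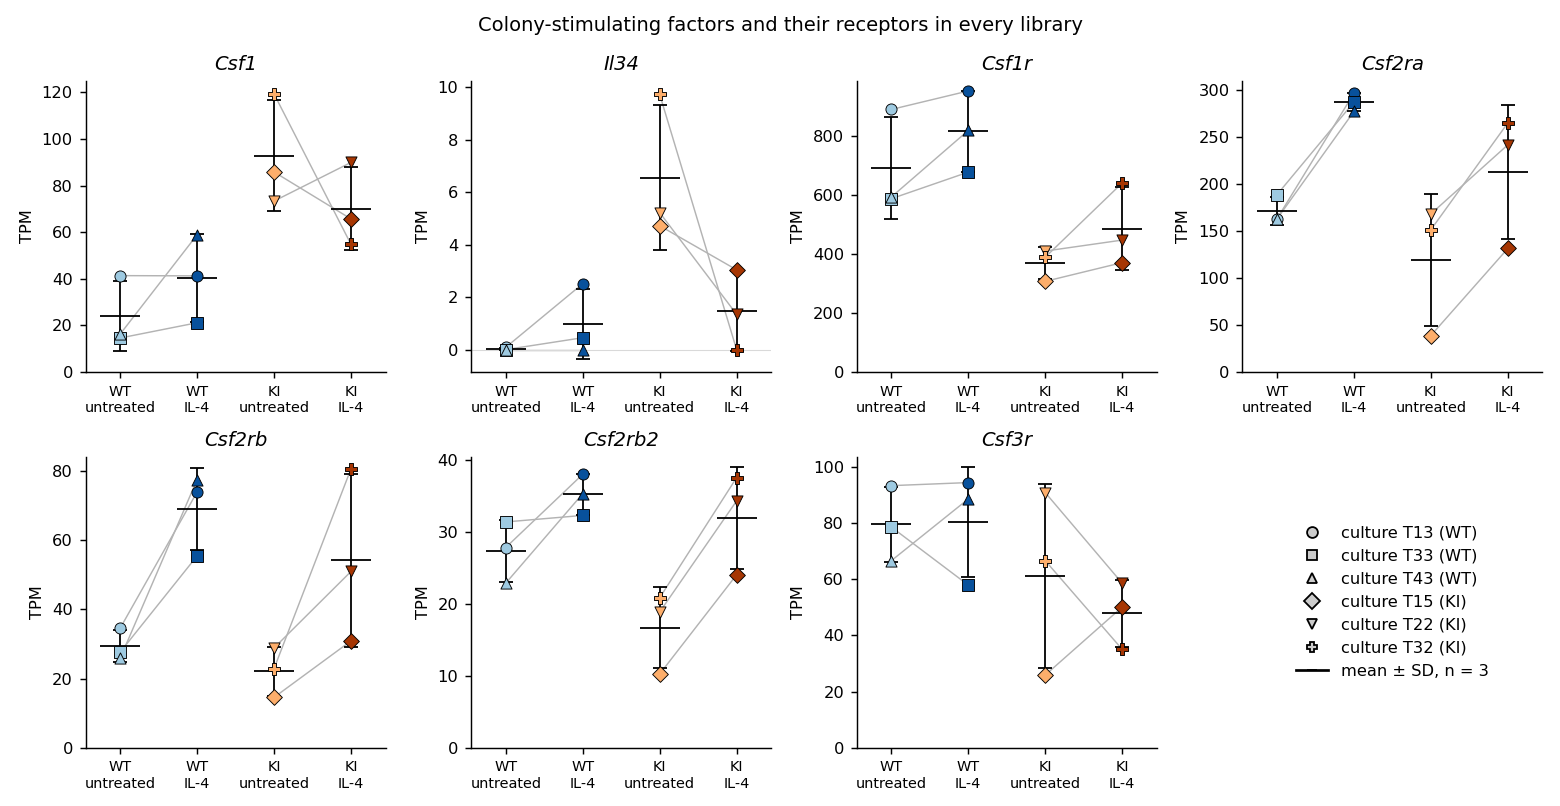
TPM (vertical axes, linear) of the 7 genes in the 12 libraries, by group; symbols mark cultures, grey lines join the untreated and IL-4-treated library of a culture, and black bars give the mean ± SD (n = 3). *Csf1* in untreated KI libraries (73.4 to 119 TPM) sits above all untreated WT libraries (14.6 to 41.4 TPM), and *Csf1r* in KI libraries sits below the WT libraries of the same treatment.

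Genotype was compared over both treatments with limma, a linear model fitted to log2(TPM + 1) of the 11204 genes whose mean exceeded 1.5, by a moderated F-test with Benjamini-Hochberg adjustment over those genes and a threshold of 0.05. In this fit, which holds 2 libraries per culture but no term for culture, *Csf1* was higher and *Csf1r* lower in KI libraries. The 4 other tested genes of the set were lower in KI on average but did not pass. The 2 genes that passed are 2 of 6 tested, against 1.65% of all genes tested, 1.29% higher and 0.357% lower. With culture as a random block, which allows for the shared origin of its 2 libraries, neither passed (adjusted p = 0.0629 and 0.0648, limma). That is 0 of 6, against 0.687% of all genes. *Il34* fell below the expression limit and was not part of either fit. The median difference of all genes tested was 0.129 on the log2 scale for the TPM values, -0.0761 once they were quantile-normalized and -0.0102 under median-ratio scaling. No gene of the set changed direction under either scaling, but quantile normalization left *Csf1* and *Csf1r* just short of the threshold (adjusted p = 0.056 and 0.0524, limma). Of the genes that passed for genotype without the block, 78.4% were higher in KI, against 60% and 59.2% under those scalings.

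*Csf1* (chr3:107741048-107760469, minus strand, GRCm38) encodes M-CSF. Untreated WT cultures T13, T33 and T43 had 41.4, 14.6 and 16.3 TPM, and untreated KI cultures T15, T22 and T32 had 85.9, 73.4 and 119 TPM. All untreated KI libraries were above all untreated WT libraries, a pattern of 13.6% of the genes tested. After IL-4, the WT cultures had 41.3, 21.2 and 58.9 TPM and the KI cultures 65.7, 89.97 and 54.8 TPM, and the ranges overlapped, since WT culture T43 was above KI culture T32. The averaged difference was 1.45 ± 0.29 (SE) on the log2(TPM + 1) scale, 2.73-fold (adjusted p = 0.0369, limma). It was 2.03 ± 0.41 in untreated cultures (adjusted p = 0.033, where 0.91% of all genes passed) and 0.86 ± 0.41 after IL-4 (adjusted p = 0.492, where 0.0179% passed). With culture as a random block, which takes into account that the 2 libraries of a culture share an origin, the adjusted p was 0.0629 and 0.687% of all genes passed. Without the untreated T15 library alone it was 0.0712. Leaving out culture T13 kept *Csf1* past the threshold (adjusted p = 0.0162). Leaving out any other culture gave adjusted p between 0.0609 (without T22) and 0.17 (without T33).

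*Csf1r* (chr18:61100598-61132149, plus strand, GRCm38) encodes the receptor for both ligands. Untreated WT cultures had 889, 587 and 592 TPM and untreated KI cultures 307, 409 and 389 TPM. After IL-4 the WT values were 951, 677 and 818 TPM and the KI values 370, 447 and 640 TPM. KI libraries were lower than WT libraries of the same treatment without overlap, as were 4.55% of the genes tested in untreated cultures and 5.79% after IL-4. KI cultures fell by 0.83 on the log2 scale (SE 0.16, 0.563-fold, adjusted p = 0.0408, limma). With culture as a random block the adjusted p was 0.0648, and without the untreated T15 library it was 0.0766. It stayed past the threshold without culture T32 (adjusted p = 0.0488). Leaving out T22, T13, T15, T33 or T43 gave 0.0716, 0.117, 0.13, 0.141 and 0.203. *Hmgxb3* overlaps the end of *Csf1r* on the opposite strand. Its highest level was 11.2 TPM, and the library kit keeps no strand.

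Ligand and receptor therefore lay further apart in WT than in KI cultures. The ratio of *Csf1r* to *Csf1* TPM was 32.7 ± 9.89 (SD, n = 3) in untreated WT, 23.0 ± 9.05 in IL-4-treated WT, 4.14 ± 1.26 in untreated KI and 7.42 ± 3.70 in IL-4-treated KI cultures. Averaged per culture over both treatments, the log2 ratio differed by -2.315 (KI minus WT; exact two-sided permutation test of 3 against 3 cultures, p = 0.1, the smallest this design can give). The ratio was chosen after its values were seen. It joins the 2 genes that passed for genotype in opposite directions in the fit without a culture block. Its test is therefore not separate evidence.

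*Il34* (chr8:110741829-110805924, minus strand, GRCm38) encodes the alternative CSF1R ligand. Untreated WT cultures were listed at 0.086, 0 and 0 TPM, and untreated KI cultures had 4.72, 5.22 and 9.73 TPM, without overlap. The same pattern held for 13.6% of the genes tested, which lie above the expression limit and do not include *Il34*. With IL-4 it had 2.51, 0.454 and 0 TPM in WT and 3.04, 1.35 and 0 TPM in KI cultures, which overlapped. In a fit with no expression limit the averaged KI minus WT difference was 1.56 ± 0.446 (SE) and did not pass (adjusted p = 0.309, limma), and the difference in IL-4 response between genotypes was -2.52 ± 0.892 (adjusted p = 0.896). Antisense genes *Gm15894* and *Gm15895* overlap *Il34* and reached 0.538 and 3.31 TPM, so that part of these low values could not be assigned to a strand.

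The genotype differences of the 4 other receptor genes were smaller relative to their errors. For *Csf2ra* the difference was -0.63 ± 0.30 (SE, log2 scale, adjusted p = 0.472, limma), for *Csf2rb* -0.43 ± 0.23 (0.583), for *Csf2rb2* -0.44 ± 0.21 (0.359) and for *Csf3r* -0.63 ± 0.26 (0.393). *Csf2rb2* did not overlap between genotypes in untreated cultures and *Csf2ra* did not overlap after IL-4, with KI lower in both, as for 4.55% and 5.79% of the genes tested. The untreated library of T15, with the most astrocyte and the fewest microglia markers, was the lowest of all 12 libraries for *Csf2ra*, *Csf2rb*, *Csf2rb2* and *Csf3r*, and also for *Csf1r*. Without culture T15 the differences were -0.14 for *Csf2ra*, -0.13 for *Csf2rb*, -0.20 for *Csf2rb2* and -0.40 for *Csf3r*.

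**Figure D2:**
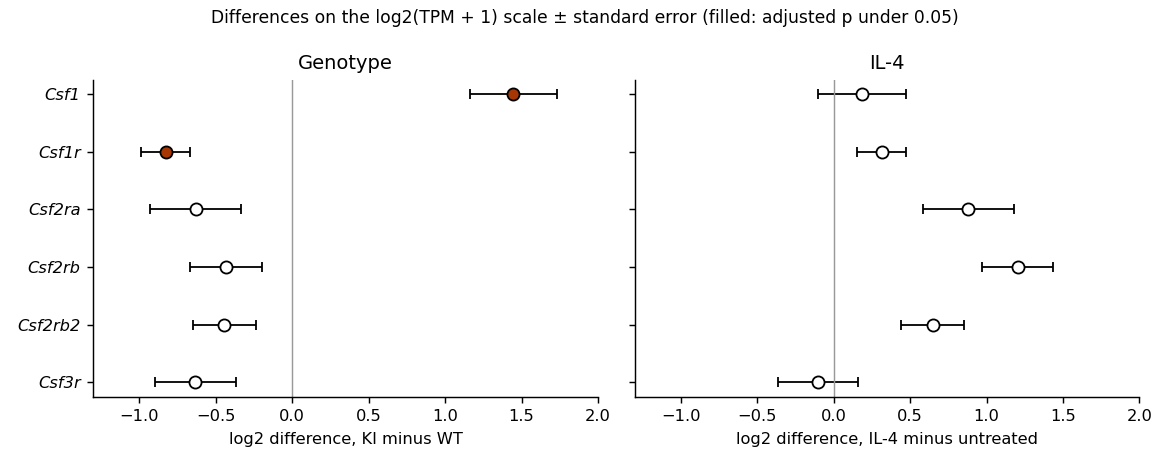
Differences on the log2(TPM + 1) scale (horizontal axes) of the 6 tested genes for genotype (left, KI minus WT) and IL-4 (right, IL-4 minus untreated), with SE bars over 12 libraries; filled points have an adjusted p under 0.05 in the fit without a culture block. *Csf1* (1.45) and *Csf1r* (-0.83) are filled on the left, and on the right *Csf2rb* (1.20) lies farthest from 0 but is open.

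IL-4 treatment was compared over both genotypes in the same model. *Csf2rb* and *Csf2ra*, the chains of the GM-CSF receptor, had higher levels with IL-4 in each of the 6 cultures, as did *Csf2rb2* and *Csf1r*. Of all genes tested, 5.73% were higher with IL-4 in all 6 cultures. None of the 6 tested genes passed without the culture block, where 0.893% of all genes did. Before adjustment, 3 of them (*Csf2rb*, *Csf2rb2* and *Csf2ra*) were under 0.05 in limma's F-test, as were 7.27% of all genes. With culture as a fixed block, which compares the 2 libraries within each culture, *Csf2rb* and *Csf2ra* rose, 2 of 6, against 2.14% of all genes and 1.79% higher.

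*Csf2rb* (chr15:78325752-78353847, plus strand, GRCm38), the common beta chain, went from 34.6 to 74.0, 27.7 to 55.5 and 25.8 to 77.6 TPM in WT cultures T13, T33 and T43, and from 14.6 to 30.9, 28.9 to 51.0 and 22.9 to 80.7 TPM in KI cultures T15, T22 and T32. All IL-4-treated WT libraries were above all untreated WT libraries, as for 10.8% of the genes tested, and the same held in KI, as for 5.47%. Both held for 1.94%. The difference was 1.20 ± 0.23 (SE) on the log2 scale, 2.30-fold (adjusted p = 0.0638 in the F-test without a block and 0.00757 with the fixed block, limma). A 1-coefficient test of this average without a block gave an adjusted p of 0.018, where 1.35% of all genes passed. It was 1.20 in both WT and KI cultures, and the difference between these responses was 0.00 ± 0.47 (adjusted p = 1).

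*Csf2ra* (chr19:61223957-61228429, minus strand, GRCm38), the alpha chain, went from 163 to 296, 188 to 287 and 163 to 277 TPM in WT cultures, and from 38.8 to 131, 168 to 241 and 151 to 265 TPM in KI cultures. WT libraries separated fully by treatment, as for 10.8% of the genes tested, whereas in KI the treated T15 library was below the untreated T22 and T32 libraries. The difference was 0.88 ± 0.30 (SE, log2 scale), with an adjusted p of 0.597 without and 0.0118 with the fixed block (limma). Without culture T15 it was 0.70 (adjusted p = 0.00758), and without the untreated T15 library alone it was 0.55 (adjusted p = 0.244).

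*Csf2rb2* (chr15:78282507-78305721, minus strand, GRCm38) went from 27.8 to 37.99, 31.4 to 32.3 and 22.9 to 35.3 TPM in WT cultures and from 10.2 to 24.0, 18.9 to 34.3 and 20.8 to 37.5 TPM in KI cultures. As for *Csf2rb*, treated and untreated libraries did not overlap within either genotype, the change in T33 being the smallest of the 6. IL-4-treated libraries were above untreated ones for 10.8% of the genes tested in WT, 5.47% in KI and 1.94% in both. The difference was 0.65 ± 0.21 (SE, log2 scale) and did not pass, with an adjusted p of 0.401 without and 0.181 with the fixed block (limma). The beta-chain genes lie 20030 bases apart on opposite strands, and 95.2% of 2628 aligned coding bases are identical. Of the 31-base words of *Csf2rb2*, 28.6% also occur in *Csf2rb*, and the split of reads between the genes is uncertain. Their sum does not depend on that split. It was 56.7 ± 7.12 TPM (SD, n = 3) in untreated and 104 ± 14.2 TPM in IL-4-treated WT cultures, and 38.7 ± 12.2 and 86.1 ± 31.6 TPM in KI cultures. Fitted in place of both genes, the sum differed by 0.99 ± 0.20 (SE) with IL-4, with an adjusted p of 0.0874 without and 0.00537 with the fixed block (limma).

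**Figure D3:**
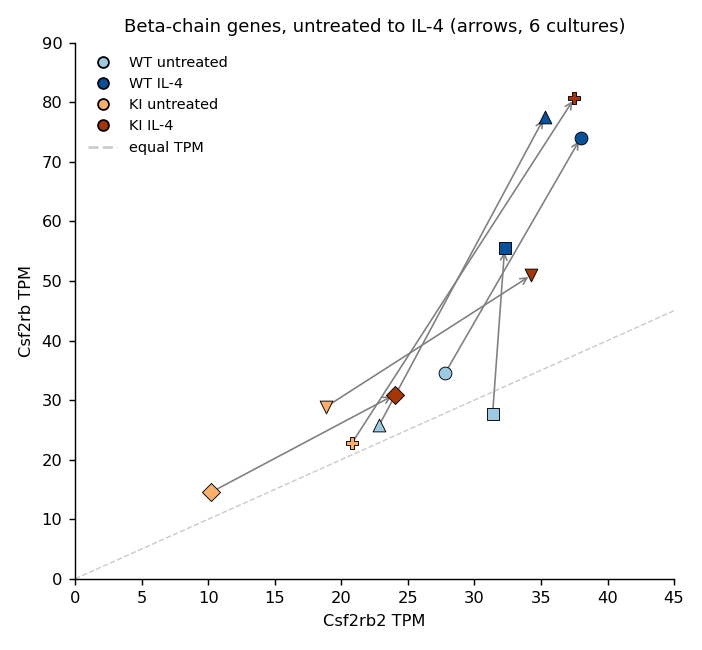
*Csf2rb* TPM (vertical axis) against *Csf2rb2* TPM (horizontal axis) in the 12 libraries, with an arrow from the untreated to the IL-4-treated library of each of the 6 cultures and a dashed line at equal TPM. Every arrow points up and to the right, and the ratio of *Csf2rb* to *Csf2rb2* went from 1.09 ± 0.185 to 1.96 ± 0.240 (SD, n = 3) in WT and from 1.35 ± 0.225 to 1.64 ± 0.452 in KI cultures.

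The ratio of *Csf2rb* to *Csf2rb2* was higher with IL-4 in 4 of 6 cultures. Its log2 difference was 0.559 ± 0.521 (SD over 6 cultures), and an exact two-sided sign-flip permutation test gave p = 0.125, where the smallest possible p is 0.03125. This ratio too was chosen after its values were seen.

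In each of the 6 cultures the *Csf1r* level with IL-4 exceeded the untreated level, by 0.0982 to 0.718 on the log2 scale, and did not pass (0.31 ± 0.16 SE, adjusted p = 0.908, limma). *Csf1* was higher in 3 cultures and lower in the other 3, with a difference of 0.77 in WT and -0.40 in KI cultures. The interaction, which is the KI response minus the WT response, was -1.17 ± 0.58 (SE, adjusted p = 1, limma). None of the 6 tested genes passed for the interaction, where 0% of all genes did and 0 of the 6, against 3.19% of all genes, were under 0.05 before adjustment.

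*Csf3r* (chr4:126024550-126044440, plus strand, GRCm38) had 93.3, 78.6 and 66.6 TPM in untreated and 94.4, 57.9 and 88.6 TPM in IL-4-treated WT cultures. In KI cultures it had 25.9, 90.8 and 66.6 TPM untreated and 50.1, 58.6 and 35.0 TPM with IL-4. All groups overlapped with their neighbours in level, and the IL-4 difference was -0.10 ± 0.26 (SE, adjusted p = 1, limma). Neutrophils are the best-known source of this transcript. Of 8 neutrophil markers, 5 were listed at 0 in every library and 7 were below 1 TPM in every library, while *S100a8* reached 14.8 TPM.

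Ordered by group mean, *Csf1* was highest in untreated KI (92.9 ± 23.8 TPM, SD, n = 3), then in IL-4-treated KI (70.2 ± 18.0), IL-4-treated WT (40.4 ± 18.9) and untreated WT cultures (24.1 ± 15.003). Each group overlapped with the next. *Csf1r* had the order IL-4-treated WT (815 ± 137 TPM), untreated WT (689 ± 173), IL-4-treated KI (486 ± 139) and untreated KI (368 ± 54.2), again with overlap between neighbours. *Csf2ra*, *Csf2rb* and *Csf2rb2* shared the order IL-4-treated WT, IL-4-treated KI, untreated WT and untreated KI. Only the first step of *Csf2ra*, from 287 ± 9.69 to 212 ± 71.3 TPM, and the last step of *Csf2rb2*, from 27.3 ± 4.27 to 16.6 ± 5.63 TPM, were without overlap.

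The summed level of markers of mural cells and fibroblasts also differed between the groups. The 9 mural and fibroblast markers summed to 142 to 328 TPM in untreated WT, 238 to 617 TPM in IL-4-treated WT, 1067 to 1327 TPM in untreated KI and 704 to 1198 TPM in IL-4-treated KI libraries. Of these markers, 5 were tested and 2 were higher in KI, against 1.29% of all genes, *Acta2* (2.11 on the log2 scale, adjusted p = 0.00296, limma) and *Tagln* (1.93, adjusted p = 0.00626), which encode contractile proteins of smooth muscle. These 2 genes make up most of the sum. The 3 other tested markers, the collagen genes *Col1a1*, *Col1a2* and *Col3a1*, differed by 0.54, 0.61 and 0.85 and did not pass (adjusted p = 0.511, 0.588 and 0.521). After IL-4 their medians were 7.22, 5.16 and 4.25 TPM in WT and 8.50, 8.38 and 7.68 TPM in KI cultures, while WT culture T43 had the highest values of all libraries (85.9, 81.7 and 63.7 TPM). *Rgs5*, a pericyte marker, stayed below 1 TPM in every library. The mean of the list on the log2 scale correlated with *Csf1* with r = 0.768 over 12 libraries and r = 0.415 after subtracting group means, as a description of libraries that share cultures. For microglia markers the same values were -0.463 and 0.485, and for astrocyte markers 0.556 and 0.255. With the mural and fibroblast mean as a covariate the *Csf1* genotype difference was 1.07 ± 0.38 (SE, adjusted p = 0.741, limma), in a fit where 2 of 11204 genes passed. The marker sums went with genotype, at or above 704 TPM in all KI and at or below 617 TPM in all WT libraries. The part of these cells in the *Csf1* result therefore cannot be told apart from genotype and was not tested.

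Microglia markers summed to 31811 to 32704 TPM in untreated WT, 36366 to 45411 TPM in IL-4-treated WT, 13954 to 27859 TPM in untreated KI and 23867 to 32195 TPM in IL-4-treated KI libraries. Of 16 tested markers, 4 were lower in KI (*Aif1*, *C1qb*, *Itgam* and *Fcrls*), against 0.357% of all genes, of which *Itgam* and *Fcrls* did not pass with the random block (adjusted p = 0.0766 and 0.0778, limma), where 0.687% of all genes passed in either direction. The median difference of the 16 was -0.65 on the log2 scale, beside -0.83 for *Csf1r*. With the marker mean as a covariate, the *Csf1r* genotype difference was -0.48 ± 0.22 (SE, adjusted p = 0.857, limma) and that of *Csf1* was 2.00 ± 0.41 (adjusted p = 0.214), in a fit where 11 of 11204 genes passed. Astrocyte markers ranged from 227 to 891 TPM in WT and from 302 to 5967 TPM in KI libraries, and 0 of 11 tested passed for genotype (median 1.63). With the astrocyte mean as a covariate, *Csf1* was at 1.27 (adjusted p = 0.138) and *Csf1r* at -0.75 (adjusted p = 0.179), and 51 genes passed. For IL-4 the same covariate gave *Csf2rb* 1.25 (adjusted p = 0.0079) and *Csf2ra* 0.98 (adjusted p = 0.0129), in a fit where 189 genes passed. With the microglia covariate they were 1.17 (adjusted p = 0.0459) and 0.83 (adjusted p = 0.391), and with the mural and fibroblast covariate 1.23 (adjusted p = 0.0929) and 0.98 (adjusted p = 0.459).

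**Figure D4:**
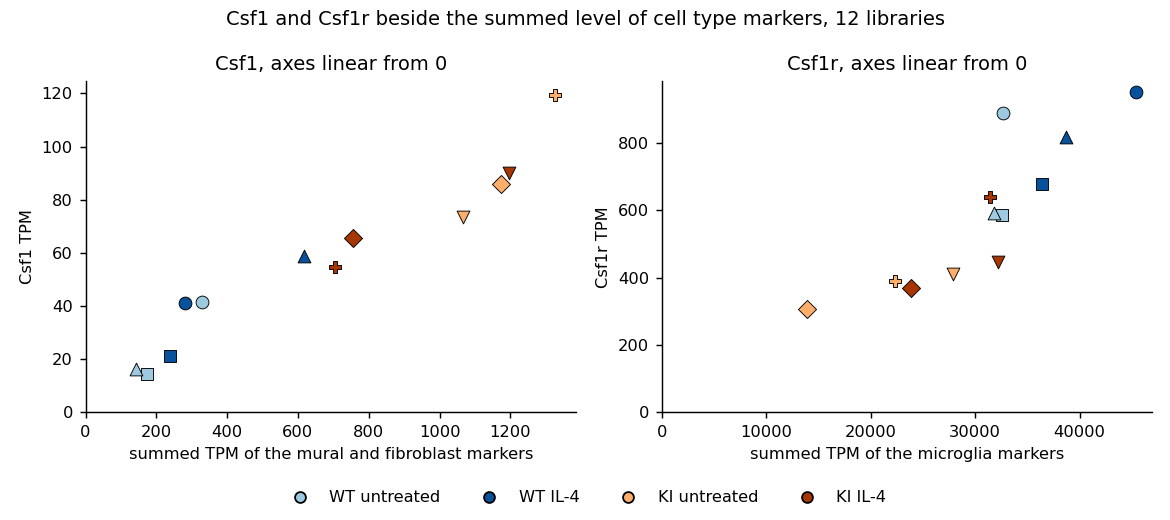
*Csf1* TPM against the summed TPM of 9 mural and fibroblast markers (left) and *Csf1r* TPM against the summed TPM of 17 microglia markers (right), 12 libraries, linear axes from 0; colours mark groups and symbols cultures as in the plot of TPM by library. All 6 KI libraries lie at or above 704 TPM of mural and fibroblast markers and all 6 WT libraries at or below 617 TPM, and the lowest *Csf1r* value (307 TPM) belongs to the library with the fewest microglia markers (13954 TPM).

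The cytokine genes that signal through the GM-CSF, G-CSF and beta-chain receptors were close to 0. *Csf2* (GM-CSF) was listed at 0 in all WT libraries and reached 2.30 TPM in KI libraries, *Csf3* (G-CSF) reached 3.11 TPM, *Il3* was listed at 0 in every library and *Il5* was below 1 TPM in every library. The IL-3 receptor alpha chain *Il3ra* ranged from 4.58 to 19.8 TPM. *Ptprz1* and *Sdc1*, whose products can also bind IL-34, differed by 2.20 ± 0.70 and 1.46 ± 0.46 (SE) between genotypes and did not pass (adjusted p = 0.228 and 0.165, limma). They belong to a list of 13 genes that also holds *Il5ra*, *Adam17*, a protease that sheds membrane proteins, and the related cytokine and receptor genes *Kitl*, *Kit*, *Flt3l* and *Flt3*. *Kitl* reached 20.5 TPM and *Flt3l* 11.9 TPM. Of this wider list 6 were tested and 0 passed for genotype or IL-4, with medians of -0.20 and 0.24 beside 0.129 and 0.0431 for all genes.

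Of 26 genes that act downstream of CSF1R, 25 were tested. For genotype, *Ccnd2*, the D-type cyclin that drives entry into the cell cycle, rose and *Ptpn6*, the phosphatase SHP-1, fell, 2 of 25 against 1.65% of all genes, with a list median of -0.23. The *Ccnd2* level was 86.6 ± 27.5 TPM (mean ± SD of 3 cultures) in untreated WT, 102 ± 12.5 in IL-4-treated WT, 415 ± 48.8 in untreated KI and 285 ± 94.5 in IL-4-treated KI cultures (1.86 on the log2 scale, adjusted p = 0.000788, and 0.00301 with the random block, limma). That of *Ptpn6* was 280 ± 25.9, 264 ± 29.5, 148 ± 49.6 and 168 ± 11.7 TPM in the same order (-0.81, adjusted p = 0.0407), and did not pass with the random block (adjusted p = 0.0819). For IL-4, the Src-family kinase gene *Fyn* rose from 28.5 ± 2.83 to 121 ± 10.6 TPM in WT and from 29.5 ± 13.7 to 79.7 ± 22.6 TPM in KI cultures (1.77, adjusted p = 0.00259). *Lyn*, of the same kinase family, fell from 165 ± 16.1 to 117 ± 8.23 TPM in WT and from 138 ± 14.4 to 83.3 ± 9.30 TPM in KI cultures (-0.61, adjusted p = 0.0391). These are 2 of 25, against 0.893% of all genes, and both also passed with the fixed block. The list median for IL-4 was 0.08.

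Of 15 genes of beta-chain and G-CSF receptor signalling, 14 were tested, 0 passed for genotype (median 0.06) and 2 rose with IL-4 (median 0.30), against 1.65% and 0.893% of all genes. Both also passed with the fixed block. They encode inhibitors of JAK-STAT signalling that cytokines induce. *Socs1* went from 2.06 ± 2.37 to 134 ± 52.5 TPM in WT and from 11.2 ± 3.43 to 86.4 ± 39.8 TPM in KI cultures (4.25 on the log2 scale, adjusted p = 8.92e-05, limma). *Socs2* went from 0.618 ± 0.952 to 24.1 ± 9.26 TPM in WT and from 4.10 ± 3.81 to 13.05 ± 8.90 TPM in KI cultures (2.89, adjusted p = 0.0239). Of 9 transcription factors known to act on *Csf1r*, all were tested and 0 passed for genotype (median -0.31) or IL-4 (median 0.19). Among them *Spi1*, which encodes PU.1, differed by -0.52 ± 0.16 (SE, adjusted p = 0.202) between genotypes.

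The genes most like each of the 6 tested genes were taken as the 3 with the highest Pearson correlation of log2(TPM + 1) over the 12 libraries, which share cultures and treatment. For *Csf1* they were *Tagln* (r = 0.953, and 0.871 after group means were subtracted), *Palld* (0.933 and 0.778) and *Ccn2* (0.931 and 0.743). *Palld* encodes an actin-associated protein. For *Csf1r* they were *Gm42031* (0.953 and 0.818), *Lst1* (0.944 and 0.810) and *Csk* (0.937 and 0.767), a kinase that restrains Src-family kinases. *Csf2ra* was most like *Fcgr3* (0.970 and 0.976), an Fc receptor gene, *Gusb* (0.963 and 0.946) and *Crip1* (0.961 and 0.934).

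*Csf2rb* was most like *Ehd4* (0.965 and 0.959), *Daglb* (0.949 and 0.851) and *Slc31a2* (0.947 and 0.806). For *Csf2rb2* the list held *P2ry6* (0.951 and 0.884), a nucleotide receptor gene, *Ctsh* (0.942 and 0.839) and *Abtb1* (0.940 and 0.846). *Csf3r* was most like *Specc1* (0.927 and 0.914), *Rps23* (0.899 and 0.878) and *Hpgds* (0.887 and 0.938). Within the set, *Csf2ra* and *Csf2rb2* had the highest correlation (0.939 and 0.928), and *Csf1* and *Csf1r* had the lowest (-0.509), which became 0.435 after group means were subtracted.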

How the data were processed

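Primary microglia of 2 *Trem2* genotypes, untreated or IL-4-treated, gave 12 poly(A) RNA-seq libraries. Read trimming by the authors used Trim Galore, and abundances came from Salmon with ENSEMBL GRCm38 and were collapsed to genes by tximport; versions are not given in the sources used here. TPM is the unit in which the authors deposited each gene's value. The authors tested counts with DESeq2; counts were not analysed here, so limma 3.58.1 in R 4.3.3 was fitted to log2(TPM + 1), a pseudocount of 1, over genes with a mean above 1.5, with genotype, IL-4 and their interaction. Fold changes on this scale understate changes of low genes. Counting error is unknown, and precision was taken from the spread between cultures. Other values were computed with numpy 2.4.6 and pandas 2.3.3 (Python 3.11.15).

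Groups follow the sample labels. The untreated and IL-4-treated libraries of a culture carry the same culture number in their titles; deviations from group means correlated within cultures by 0.0792 to 0.378. Culture was therefore also fitted as a block, random for genotype (within-culture correlation 0.198) and fixed for IL-4. The members and lists were chosen with earlier results of these data known. Named genes are the members, ligands, pathway genes past the threshold and the 3 most correlated genes per member. Some further genes of the pathway and marker lists that did not pass are named beside them. Names and coordinates came from the GENCODE annotation of GRCm38 and promoters from RefSeq. The fit was tested on simulated data. Alternatives are given below. Covariates of mural and fibroblast markers, the fit without the untreated T15 library and the summed beta chains were added after seeing the data.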

Additional observations from a re-analysis of the deposited data

How the results depend on the processing

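Alternatives were a pseudocount of 0.1, no expression limit, a limit of 3, median-ratio scaling or quantile normalization, a fit without the variance trend, culture as a replicate block, marker covariates, a 1-coefficient test, single contrasts and leaving out each culture. TPM keeps no depth, so counting error, which weighs most on low genes such as *Il34*, could not be assessed. For genotype, 2 of the 6 tested genes passed (185 of all genes). The count was 1 with a pseudocount of 0.1 and in untreated cultures alone. It was 0 with no limit, quantile normalization, no variance trend, the random replicate block, the microglia, astrocyte or mural and fibroblast covariate, after IL-4 alone and without the untreated T15 library. It was 0 to 1 on leaving out a culture. For IL-4, 0 passed (100 of all genes), but 1 with a limit of 3, the microglia covariate or the 1-coefficient test, and 2 with the fixed replicate block or the astrocyte covariate. It stayed 0 with the mural and fibroblast covariate. Leaving out a culture gave 0 to 2, with 2 without T15. The block changed no other call of a tested gene of the set. The genes past the threshold in the whole table ranged from 2 to 575 for genotype and from 45 to 240 for IL-4, and were 0 for the interaction except for 4 with no limit.

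Some differences turned direction, and none of them had passed. The genotype difference was 0.18 for *Csf2ra*, 0.047 for *Csf2rb* and 0.26 for *Csf3r* with the microglia covariate, and 0.026 for *Csf2ra* with the astrocyte covariate. The IL-4 difference of *Csf1* was -0.40 in KI cultures and ranged from -0.074 to 0.38 on leaving out a culture, that of *Csf3r* from -0.39 to 0.074. The interaction of *Csf2rb* was -0.15 with the microglia covariate. With the mural and fibroblast covariate it was -0.016 for *Csf1r*, -0.41 for *Csf2ra* and -0.22 for *Csf2rb*, and without the untreated T15 library -0.010, -0.39 and -0.26. On leaving out a culture it ranged from -0.058 to 0.24 for *Csf1r*, from -0.080 to 0.53 for *Csf2ra*, from -0.28 to 0.20 for *Csf2rb* and from -0.76 to 0.16 for *Csf3r*. The cause was not tested.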

Other observations

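Markers of further cell types were measured in the same fit (limma, adjusted p over all genes tested), in which 1.65% of all genes passed for genotype and 0.893% for IL-4. Of 3 tested border macrophage and monocyte markers, 1 rose with IL-4 (list median 0.58 on the log2 scale). It was *Mrc1*, the mannose receptor gene (3.11, adjusted p = 0.00265), while *Pf4* differed by 0.58 (adjusted p = 0.963) and *F13a1* by -1.19 (adjusted p = 0.907). Of 2 tested endothelial markers, *Flt1*, which like *Csf1r* encodes a receptor tyrosine kinase, rose with IL-4 by 1.96 (adjusted p = 0.00056) and *Pecam1* differed by 0.94 (adjusted p = 0.638). Of 7 tested oligodendrocyte lineage markers, 1 passed for genotype, with differences from -1.50 (*Cspg4*, adjusted p = 0.287) to 2.69 (*Olig1*, adjusted p = 0.0438) and a median of 0.27. *Olig1* did not pass with culture as a random block (adjusted p = 0.0634). Neither of the 2 tested neuron markers passed in either comparison.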
